A study of Mus musculus with 12 samples.

Results

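The 34 genes described here encode proteins with which mouse mitochondria translate their own messenger RNAs, and they were taken by name from a table of 21671 genes. They comprise 16 mitochondrial aminoacyl-tRNA synthetases, 3 genes of translation initiation (Mtif2, Mtif3 and Mtfmt), 4 of elongation (Tufm, Tsfm, Gfm1 and Guf1) and 4 of termination and ribosome recycling (Mtrf1, Mtrf1l, Mrrf and Gfm2). A further 4 act on mitochondrial mRNA or on the insertion of new proteins into the inner membrane (Lrpprc, Slirp, Taco1 and Oxa1l), and 3 modify the wobble base of mitochondrial tRNAs (Trmu, Mto1 and Gtpbp3). The rule lists them by name and uses no measured value, although the names were chosen with earlier results of these data known.

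The libraries were made from total RNA, after removal of ribosomal RNA, of FL5.12 cells expressing MycER (FL-MycER), a prolymphocytic mouse line of BALB/c origin. All 4 groups, the controls included, came from a pool of resistant cells selected after infection with a retrovirus that drives the MycER chimera, a form of MYC that 4-hydroxytamoxifen (OHT) activates. The groups were untreated cells, cells given 100 nM OHT for 72 h (OHT), cells given 24 h of IACS-010759, an inhibitor of complex I of the respiratory chain, at 135 nM (IACS), and cells with both agents at these doses, in which OHT came 48 h before the inhibitor and lasted 72 h in all (OHT_IACS). By the study's methods, all cells were passaged in medium with reduced glucose before experiments involving IACS-010759. Each group had 3 replicates, 12 libraries in all. Cells without MycER were not analysed here, so that an action of OHT through MycER and any other action of OHT cannot be told apart. The study's methods call the replicates biological, and no source used here says whether they were separate cultures, so the p-values measure the spread between these libraries, which may be technical.

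The deposited values were RPKM, that is, reads per kilobase of the gene and per unit of library size. The totals behind them, worked out from the steps between the values, ran from 10376530 to 14550158 reads, with 4199266 to 5762340 reads on genes. OHT replicates 1 and 3 had the smallest totals, at 71.3% and 74.0% of the largest, whereas OHT replicate 2 stood at 95.9%. The slope of log2 reads on log2 library total within groups had a median of 1.16 over the 34 genes (range 0.5 to 1.75) and of 1.22 over all genes tested, where 1 is proportional. Its median was 0.18 over the 84 genes tested with more than 1 read per base, a density above that of each of the 34 (at most 0.571). Replicates differed by more than sampling noise over genes with fewer than 0.1 reads per base, with a chi-square per gene of 1.08 to 1.88 in the 12 pairs. Over genes of any read density the values reached 4.84 for OHT replicates 1 and 2, 2.61 for OHT replicates 2 and 3, and 2.08 and 2.71 for IACS replicate 3 against replicates 1 and 2. For IACS replicates 1 and 2 the value was 1.02 (chi-square test of the counts of these 2 libraries, p = 0.085), so counts of DEGs were also made with these 2 averaged. Among B-lineage markers, Cd79a and Cd79b reached an RPKM of 1, while Pax5, Vpreb2, Rag1, Dntt, Il7r and Blnk were at 0 in each library. The myeloid markers were mixed. Mpo (8.65 to 13.7 RPKM), Prtn3 (8.74 to 21.6 RPKM), S100a8 (2.6 to 26.9 RPKM) and S100a9 (3.36 to 33.1 RPKM) were above an RPKM of 1 in each library. Elane (at most 0.202 RPKM) and Csf1r (at most 0.107 RPKM) stayed below it, and Lyz2, Itgam, Cd14 and Ngp were below it in some libraries. The B-lineage markers thus do not bear out a B-lymphoid identity, and the myeloid ones do not settle another.

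Mitochondrial DNA encodes a few subunits of the respiratory chain and of ATP synthase, together with the ribosomal and transfer RNAs needed to translate them. All proteins of this translation system are encoded in the nucleus and imported. Synthetases attach each amino acid to its tRNA, initiation factors place the formylated initiator methionine on the ribosome, elongation factors deliver charged tRNAs and move the ribosome along, and release and recycling factors free the finished chain and split the ribosome. Most mitochondrial synthetases come from a gene separate from that of the cytosolic enzyme for the same amino acid.

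Promoter sequences were found in RefSeq (GRCm38.p6) for 30 of the 34 genes, 31 promoters in all, each reaching from 250 bases before the first transcribed base to 50 bases from it on. Those of 4 genes are printed because the comparisons below turn on them: Mars2 and Wars2 had the largest rises with OHT in cells without the inhibitor, Cars2 fell in each of 4 comparisons, and Mtrf1 had the largest change between groups, a fall with IACS-010759 in OHT-primed cells. They lie at chr1:55236927-55237226 on the plus strand (Mars2), chr3:99140840-99141139 on the plus strand (Wars2), chr8:11550722-11551021 on the minus strand (Cars2) and chr14:79397522-79397821 on the plus strand (Mtrf1). Capitals mark a match to the NRF1 motif, and the sequences run 5′ to 3′ along the gene's strand.
Mars2: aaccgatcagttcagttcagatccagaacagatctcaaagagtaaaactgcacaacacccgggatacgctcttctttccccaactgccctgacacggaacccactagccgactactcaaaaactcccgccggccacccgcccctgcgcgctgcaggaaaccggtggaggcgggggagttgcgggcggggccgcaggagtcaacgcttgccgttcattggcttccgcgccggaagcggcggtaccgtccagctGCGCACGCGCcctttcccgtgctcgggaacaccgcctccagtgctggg
Wars2: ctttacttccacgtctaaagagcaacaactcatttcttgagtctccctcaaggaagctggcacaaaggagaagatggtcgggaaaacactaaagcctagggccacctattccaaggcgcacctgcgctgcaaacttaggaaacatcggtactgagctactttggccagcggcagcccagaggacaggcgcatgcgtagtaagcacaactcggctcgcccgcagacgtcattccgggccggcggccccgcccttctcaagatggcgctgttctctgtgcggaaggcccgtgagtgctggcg
Cars2: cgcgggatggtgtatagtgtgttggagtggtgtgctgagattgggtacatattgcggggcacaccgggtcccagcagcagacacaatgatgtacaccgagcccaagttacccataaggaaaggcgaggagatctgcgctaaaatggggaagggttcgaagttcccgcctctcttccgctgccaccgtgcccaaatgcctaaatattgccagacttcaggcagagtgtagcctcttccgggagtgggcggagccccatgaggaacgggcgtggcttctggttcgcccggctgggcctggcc
Mtrf1: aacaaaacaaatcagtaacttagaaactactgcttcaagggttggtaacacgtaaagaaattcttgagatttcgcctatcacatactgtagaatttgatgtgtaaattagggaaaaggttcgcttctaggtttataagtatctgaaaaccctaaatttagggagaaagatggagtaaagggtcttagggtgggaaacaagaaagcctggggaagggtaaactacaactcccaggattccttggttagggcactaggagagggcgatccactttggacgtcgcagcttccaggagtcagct

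Both strands of the promoters were searched for 3 motifs. The E-box CACGTG, a sequence that MYC with MAX can bind, was found in 1 of the 31 promoters (3.23%), that of Ears2, where it started at base 21 after the start, against 10.5% of the promoters of genes tested and 7.15% of all promoters. The ATF4-C/EBP sequence TGATGNAA was found in 0 of the 31, against 2.15% of the promoters of genes tested and 3.97% of all. NRF1, a factor known for nuclear genes of mitochondrial function, has a known GC-rich palindromic motif, searched with 1 free base, which was found in 4 promoters (12.9%; Gfm2, Iars2, Mars2 and Oxa1l), against 11.5% of the promoters of genes tested and 4.6% of all. In Mars2 it started 2 bases after the first transcribed base and lay on the opposite strand. None of these letters was in the windows of Wars2, Cars2 or Mtrf1 printed above. The median GC content was 58.0% in the 31 promoters and 61.0% in those of genes tested. A match describes letters only, and binding was not measured.

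In untreated cells the 34 genes were at moderate levels, with a median of 8.25 RPKM, beside 9.0 RPKM over all 9745 genes tested (those reaching an RPKM of 1 in 3 libraries or more). Each of the 34 passed this filter and was above an RPKM of 1 in each of the 12 libraries, with 39 to 1755 reads, and 30 of them had at least 100 reads in each library. Tufm, which encodes the elongation factor that brings charged tRNAs to the ribosome, was the most abundant at 43.3 ± 0.587 RPKM (SD, n = 3). Next came Lrpprc, a stabiliser of mitochondrial mRNA, at 25.3 ± 0.190 RPKM, Gfm1, the translocase, at 24.2 ± 0.487 RPKM, and Tsfm, the exchange factor of Tufm, at 19.7 ± 0.533 RPKM. Mars2, the methionine enzyme, led the synthetases with 16.5 ± 0.418 RPKM. These 5 did not overlap with their neighbours in that order. From Oxa1l (14.9 to 15.9 RPKM) through Slirp (13.0 to 16.1 RPKM) to Mtif3 (13.2 to 14.1 RPKM) neighbours overlapped. The release factors Mtrf1l (1.99 to 2.11 RPKM) and Mtrf1 (1.78 to 1.83 RPKM) were the lowest, and their ranges were apart.

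**Figure D1:**
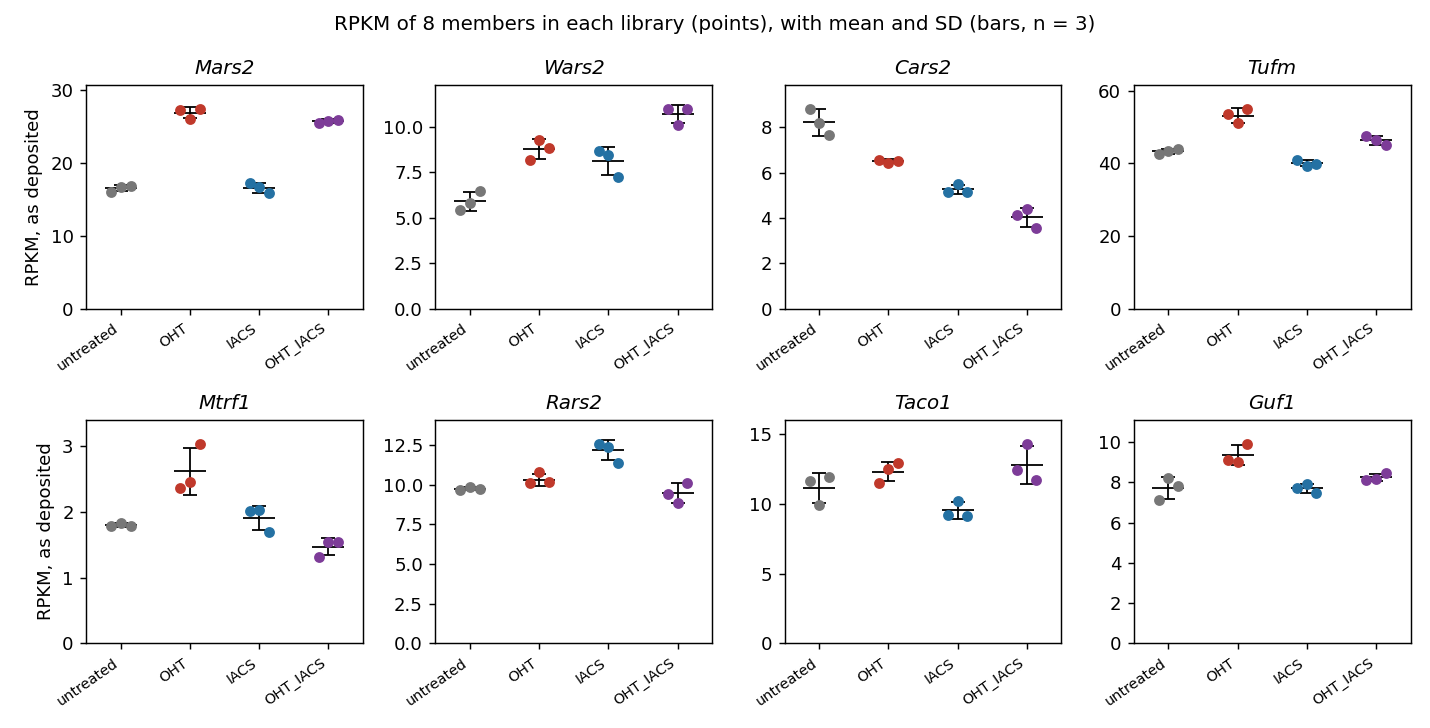
RPKM (vertical axes, each from 0) of 8 of the genes in each library, with 1 point a library and bars for the mean and SD of 3 libraries in untreated, OHT, IACS and OHT_IACS cells. Mars2 sits at 26 to 27.4 RPKM with OHT and at 25.4 to 25.9 RPKM with OHT_IACS, above 15.9 to 17.3 RPKM in the other libraries, whereas Cars2 is lowest with OHT_IACS (3.56 to 4.40 RPKM).

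The first comparison asked how OHT, which activates MycER, moved these genes in cells without the inhibitor. All 4 elongation genes rose, as did 4 of the 16 synthetases (Mars2, Wars2, Nars2 and Yars2) and the release factor Mtrf1, while the cysteine synthetase Cars2 and the recycling factor Gfm2 fell. In all, 11 of the 34 genes passed the test (limma, Benjamini-Hochberg adjusted p under 0.05 over all genes tested, hereafter DEGs), 9 higher (26.5%) and 2 lower (5.88%). Over all genes tested 36.4% were DEGs, 18.2% higher and 18.2% lower, beside 32.4% of the 34 in either direction, and these shares were not tested against each other. The median log2 fold change was 0.12 over the 34 and 0.013 over all genes. Against the mean of untreated cells, the median of the 34 was 0.074, 0.082 and 0.124 on the log2 scale in the 3 OHT libraries and -0.006 to 0.013 in the 3 untreated ones. The OHT and untreated libraries did not overlap for 18 of the 34 genes (52.9%), beside 45.8% of all genes. With library total (log2) added as a covariate, 7 were DEGs, 6 higher and 1 lower, with a median of 0.107.

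Mars2, which charges mitochondrial tRNA with methionine, showed the largest of these rises. Its RPKM were 16, 16.7 and 16.8 in untreated cells and 27.3, 26 and 27.4 with OHT. The groups were far apart, with the lowest OHT library well above the highest untreated one (log2 fold change 0.68 ± 0.04 SE, adjusted p = 1.6e-07). Wars2, the tryptophan enzyme, had 5.44, 5.81 and 6.50 RPKM in untreated cells and 8.21, 9.27 and 8.87 RPKM with OHT. Here too the groups did not overlap (0.54 ± 0.07, adjusted p = 7.5e-05). Nars2, the asparagine enzyme, went from 5.24, 5.27 and 4.40 RPKM to 6.24, 6.64 and 6.77 RPKM, again without overlap (0.37 ± 0.08, adjusted p = 0.0029). Yars2, the tyrosine enzyme, moved less. It had 12.3, 12.2 and 11.7 RPKM in untreated cells and 14.1, 13.5 and 14.7 RPKM with OHT (0.20 ± 0.06, adjusted p = 0.016). Its groups were apart, but its call was lost without untreated replicate 3, OHT replicate 1 or OHT replicate 3 (adjusted p 0.05 to 0.067) and with the library total as a covariate (0.11).

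Cars2, which charges the mitochondrial cysteine tRNA, went the other way. It was at 8.82, 8.20 and 7.66 RPKM in untreated cells and at 6.58, 6.41 and 6.54 RPKM with OHT, and all OHT libraries were below all untreated ones (log2 fold change -0.35 ± 0.08 SE, adjusted p = 0.0031). The other 11 synthetases were not DEGs, with log2 fold changes from -0.20 (Aars2, alanine, adjusted p = 0.068) to 0.17 (Lars2, leucine, adjusted p = 0.17). The median over the 16 synthetases was 0.044.

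The elongation factors rose together, with a median log2 fold change of 0.254. Tufm had 42.7, 43.5 and 43.9 RPKM in untreated cells and 53.5, 51.0 and 55.0 RPKM with OHT. Its libraries within each group lay close together and the groups were apart (0.27 ± 0.05, adjusted p = 0.0012). With the library total as a covariate its log2 fold change was 0.20 (limma, adjusted p = 0.003). Gfm1 was at 23.7, 24.2 and 24.7 RPKM and then at 27.7, 28.5 and 32.2 RPKM, with OHT replicate 3 the highest (0.26 ± 0.05, adjusted p = 0.0017). Guf1, a GTPase thought to act on stalled elongation, was at 7.14, 8.21 and 7.83 RPKM and then at 9.13, 9.0 and 9.93 RPKM. Its groups did not overlap either (0.25 ± 0.06, adjusted p = 0.0048, or 0.055 with the library total as a covariate). Tsfm was at 19.9, 19.1 and 20.2 RPKM and then at 23.6, 21.9 and 22.9 RPKM (0.18 ± 0.05, adjusted p = 0.015). The call for Tsfm was lost without untreated replicate 2 or OHT replicate 1 (adjusted p 0.063 and 0.057) and with the covariate (0.11).

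Among the genes of termination and recycling, Mtrf1 was at 1.78, 1.83 and 1.78 RPKM in untreated cells and at 2.37, 2.46 and 3.04 RPKM with OHT. It stayed a low transcript, but the groups were apart (log2 fold change 0.49 ± 0.11 SE, adjusted p = 0.0043). Gfm2, a GTPase that splits the ribosome together with the recycling factor Mrrf, was at 4.39, 4.30 and 4.52 RPKM and then at 3.55, 4.15 and 3.81 RPKM (-0.22 ± 0.08, adjusted p = 0.047). That call was weak. It was lost without any of the 3 untreated libraries, without OHT replicate 1 or 3, without IACS replicate 1 and without OHT_IACS replicate 1 or 2 (adjusted p 0.055 to 0.13), and with the covariate it was at -0.09 (adjusted p = 0.47). Of the initiation, mRNA and wobble genes 0 of 10 were DEGs (1 of the mRNA and insertion genes and 1 of the wobble genes were at an unadjusted p under 0.05, as were 46.4% of all genes). Oxa1l, the insertase of the inner membrane, came nearest (0.14 ± 0.05, adjusted p = 0.054).

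Levels of other genes moved with OHT as well. The summed level of 10 myeloid markers was 86.4 to 93.0 RPKM in untreated cells and 29.6 to 30.7 RPKM with OHT, and 8 of the 10 reached an RPKM of 1 in some library. Summed markers of the other lists were 15.5 to 16.6 and 11.6 to 13.7 RPKM (erythroid), 3.88 to 4.64 and 2.71 to 2.82 RPKM (B lineage), 2.24 to 2.67 and 1.26 to 1.44 RPKM (T lineage) and, with overlap, 4.87 to 5.33 and 4.62 to 5.95 RPKM (mast cell and basophil). Few of these reached an RPKM of 1 in any library: 3 of 4 erythroid, 2 of 14 B-lineage, 1 of 6 T-lineage (Cd3g) and 1 of 4 mast cell and basophil markers. The last was Cpa3 (4.05 to 14.2 RPKM over all libraries), which made up most of its sum. In such bulk samples, fewer cells of a type and less RNA per cell cannot be told apart, and the part of these shifts in the rises and falls above was not tested.

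OHT was then compared under the inhibitor (OHT_IACS against IACS), with group means from 6 libraries other than those of the first comparison. The spread was estimated from all 12 libraries in both, so their calls are not independent. Under the inhibitor, 13 of the 34 were DEGs, 9 higher (26.5%) and 4 lower (11.8%), beside 26.5% of all genes (12.3% higher and 14.2% lower). The median log2 fold change was 0.061, beside -0.003 over all genes. The groups did not overlap for 14 of the 34 (41.2%), beside 40.4% of all genes. With IACS replicates 1 and 2 averaged, 8 were DEGs, and the same number was found without IACS replicate 2 or OHT_IACS replicate 2. The summed myeloid markers were again lower, at 76.1 to 92.5 RPKM with IACS and 27.1 to 28.4 RPKM with OHT_IACS. The sums of the erythroid (9.04 to 10.4 and 7.92 to 8.47 RPKM), B-lineage (3.92 to 5.06 and 2.12 to 2.91 RPKM) and T-lineage markers (2.46 to 2.59 and 1.87 to 1.98 RPKM) were lower without overlap as well. That of the mast cell and basophil markers, mostly Cpa3, was higher (8.39 to 8.66 and 11.7 to 15.1 RPKM). Their part was not tested.

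**Figure D2:**
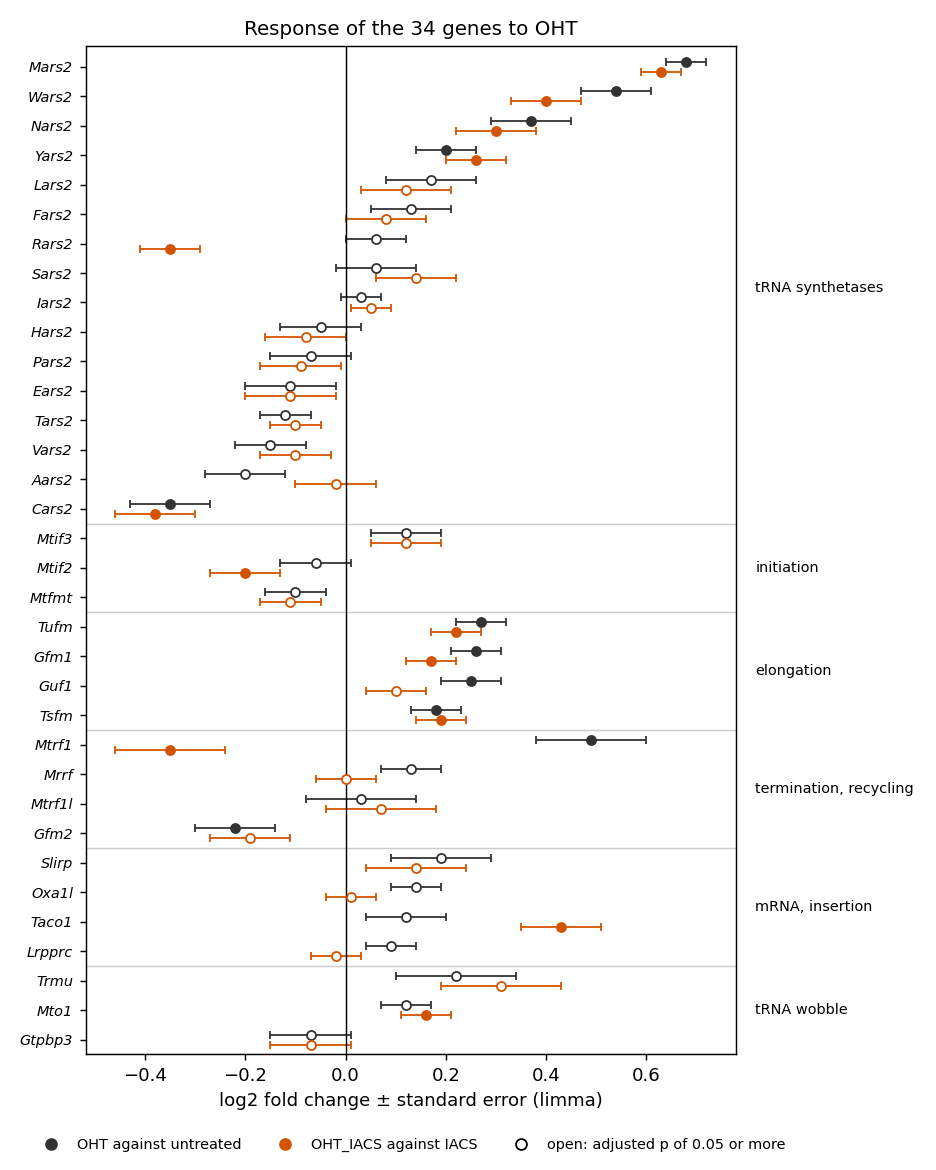
log2 fold change with OHT (horizontal axis) of each of the 34 genes, grouped by role, in cells without the inhibitor (dark points, OHT against untreated) and with it (orange points, OHT_IACS against IACS). Bars are standard errors (limma, 3 libraries a group) and filled points are DEGs. Mars2, Wars2, Nars2, Yars2, Tufm, Gfm1 and Tsfm are filled and right of 0 in both, Cars2 is filled and left of 0 in both, and Mtrf1 lies at 0.49 in one and at -0.35 in the other.

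A group of 8 genes were DEGs in the same direction in both settings: Mars2, Wars2, Nars2, Yars2, Tufm, Gfm1, Tsfm and, lower, Cars2. With Mtrf1, which went opposite ways, the 9 DEGs common to both were 81.8% of the first 11 and 69.2% of the second 13. The sign was the same for 30 of the 34 genes, and the log2 fold changes correlated across the genes with a Pearson r of 0.66 and a Spearman rho of 0.72 (n = 34 genes, which share libraries and are not independent). Across all genes tested r was 0.70. Their shares of common DEGs and of equal signs were not computed. Those of the 34 genes are therefore not shown to be particular to them.

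Mars2 stood at 17.3, 16.7 and 15.9 RPKM with IACS and at 25.4, 25.8 and 25.9 RPKM with OHT_IACS. The groups were as far apart as without the inhibitor (0.63 ± 0.04, adjusted p = 5.1e-07, and an interaction of -0.04 ± 0.06, adjusted p = 0.79). Wars2 had 8.70, 8.45 and 7.26 RPKM with IACS and 11, 10.1 and 11 RPKM with OHT_IACS, without overlap (0.40 ± 0.07, adjusted p = 0.0012). Cars2 had 5.15, 5.50 and 5.15 RPKM and then 4.13, 4.40 and 3.56 RPKM, all lower (-0.38 ± 0.08, adjusted p = 0.0028). Yars2 went from 10.8, 11.3 and 9.61 RPKM to 12, 12.8 and 13.0 RPKM, and its groups were apart (0.26 ± 0.06, adjusted p = 0.0041). Nars2 went from 5.13, 5.20 and 5.48 RPKM to 6.55, 7.02 and 5.94 RPKM (0.30 ± 0.08, adjusted p = 0.014). That call was lost without IACS replicate 1, IACS replicate 2 or OHT_IACS replicate 2 (adjusted p 0.051 to 0.06).

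Tufm had 40.9, 39.3 and 39.9 RPKM with IACS and 47.6, 46.3 and 45.0 RPKM with OHT_IACS, and the groups did not overlap (0.22 ± 0.05, adjusted p = 0.0071). Tsfm rose by 0.19 ± 0.05 on the log2 scale (adjusted p = 0.018), a call lost without IACS replicate 3 or OHT_IACS replicate 2 (0.066 and 0.064). Gfm1 rose by 0.17 ± 0.05 (adjusted p = 0.025), a call lost without IACS replicate 2, OHT_IACS replicate 1 or OHT_IACS replicate 2 (0.074 to 0.11). Guf1 was not a DEG here (0.10 ± 0.06, adjusted p = 0.23), although its libraries did not overlap.

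Rars2, Taco1, Mtif2 and Mto1 were DEGs under the inhibitor and not without it, and Mtrf1 in opposite directions. The differences themselves were tested in the interaction below. Rars2, the arginine enzyme, was at 12.6, 12.4 and 11.4 RPKM with IACS and at 9.44, 8.85 and 10.1 RPKM with OHT_IACS, entirely below (-0.35 ± 0.06, adjusted p = 0.00051). Taco1, an activator of the translation of cytochrome c oxidase subunit I mRNA, was at 9.21, 10.2 and 9.14 RPKM and then at 12.4, 14.3 and 11.7 RPKM, entirely above (0.43 ± 0.08, adjusted p = 0.0011). Mtrf1 went from 2.01, 2.03 and 1.70 RPKM to 1.32, 1.54 and 1.54 RPKM, also without overlap (-0.35 ± 0.11, adjusted p = 0.033). Its call was lost in 5 alternative fits (adjusted p 0.051 to 0.1) and without IACS replicate 1 or 2 or OHT_IACS replicate 1 or 2 (adjusted p 0.056 to 0.12). The initiation factor Mtif2 (-0.20 ± 0.07, adjusted p = 0.043) and the wobble enzyme Mto1 (0.16 ± 0.05, adjusted p = 0.043) were at the threshold. Mtif2 lost its call without any 1 of the untreated or OHT_IACS libraries or IACS replicate 1 or 2 (adjusted p 0.056 to 0.17). Mto1 lost it without any 1 of the untreated or IACS libraries, OHT replicate 3, or OHT_IACS replicate 1 or 3 (0.053 to 0.16).

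The effect of IACS-010759 was first compared in nonprimed cells (IACS against untreated). Of the 8 DEGs 7 were synthetases. Wars2, Fars2, Rars2, Tars2 and Iars2 rose and Cars2 and Yars2 fell, and outside the synthetases Taco1 fell. The 8 DEGs, 5 higher (14.7%) and 3 lower (8.82%), were 23.5% of the 34, beside 15.9% of all genes (8.15% higher and 7.74% lower). The median log2 fold change was -0.008, beside 0.004 over all genes, and 17 genes were higher and 17 lower. This comparison shares its untreated libraries with that of OHT against untreated. The count rested on single libraries. It was 3 without untreated replicate 1, 4 without IACS replicate 1, 5 without untreated replicate 2 or IACS replicate 3, and 4 with IACS replicates 1 and 2 averaged. The groups did not overlap for 12 of the 34 genes (35.3%), beside 37.5% of all genes.

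Cars2 showed the largest change. It fell from 8.82, 8.20 and 7.66 RPKM to 5.15, 5.50 and 5.15 RPKM, far below the untreated range (log2 fold change -0.66 ± 0.08 SE, adjusted p = 0.00011). Wars2 rose from 5.44, 5.81 and 6.50 RPKM to 8.70, 8.45 and 7.26 RPKM, with IACS replicate 3 nearest to the untreated libraries (0.43 ± 0.07, adjusted p = 0.0016). Rars2 rose from 9.65, 9.87 and 9.75 RPKM to 12.6, 12.4 and 11.4 RPKM, without overlap (0.29 ± 0.06, adjusted p = 0.0042). These 3 calls held with each library left out in turn.

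Fars2, the phenylalanine enzyme, was at 6.65, 7.24 and 7.90 RPKM in untreated cells and at 10.4, 10.2 and 7.77 RPKM with IACS. IACS replicate 3 overlapped with the untreated libraries (0.34 ± 0.08, adjusted p = 0.015), and the call was lost without untreated replicate 1, IACS replicate 1 or IACS replicate 2 (0.057 to 0.071). Tars2, the threonine enzyme, was at 10.5, 10.4 and 10.7 RPKM and then at 12.6, 13.2 and 11.4 RPKM. The groups were apart (0.20 ± 0.05, adjusted p = 0.02), but the call was lost without untreated replicate 1 or 2 or IACS replicate 1 or 2 (0.058 to 0.08). Iars2, the isoleucine enzyme, was at 11, 11.5 and 11.6 RPKM and then at 13.6, 12.5 and 12.5 RPKM (0.15 ± 0.04, adjusted p = 0.029). Its call was lost without any 1 of the untreated libraries or IACS replicate 1 or 3 (0.061 to 0.12). Yars2 fell from 12.3, 12.2 and 11.7 RPKM to 10.8, 11.3 and 9.61 RPKM (-0.22 ± 0.06, adjusted p = 0.018), a call lost without untreated replicate 1 or 2 or IACS replicate 3 (0.062 to 0.076). Taco1 was at 11.6, 9.92 and 11.9 RPKM and then at 9.21, 10.2 and 9.14 RPKM. These groups overlapped (-0.25 ± 0.08, adjusted p = 0.04), and the call was lost without untreated replicate 1 or 3, IACS replicate 1 or 3, or OHT_IACS replicate 1 (0.051 to 0.14).

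The 4 elongation genes, 0 of which were DEGs with IACS, had log2 fold changes from -0.14 (Tufm, adjusted p = 0.078) to 0.00 (Gfm1, adjusted p = 0.98), with 1 of them at an unadjusted p under 0.05, beside 30.5% of all genes. For Tufm, all IACS libraries (39.3 to 40.9 RPKM) were below all untreated ones (42.7 to 43.9 RPKM), and with quantile normalization, the library total as a covariate or limma voom on recovered reads it was a DEG (adjusted p = 0.0066, 0.0032 and 0.039). Summed erythroid markers were at 15.5 to 16.6 RPKM in untreated cells and 9.04 to 10.4 RPKM with IACS. Summed mast cell and basophil markers, mostly Cpa3, were at 4.87 to 5.33 RPKM and 8.39 to 8.66 RPKM, with Kit at 0. The part of these shifts was not tested.

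**Figure D3:**
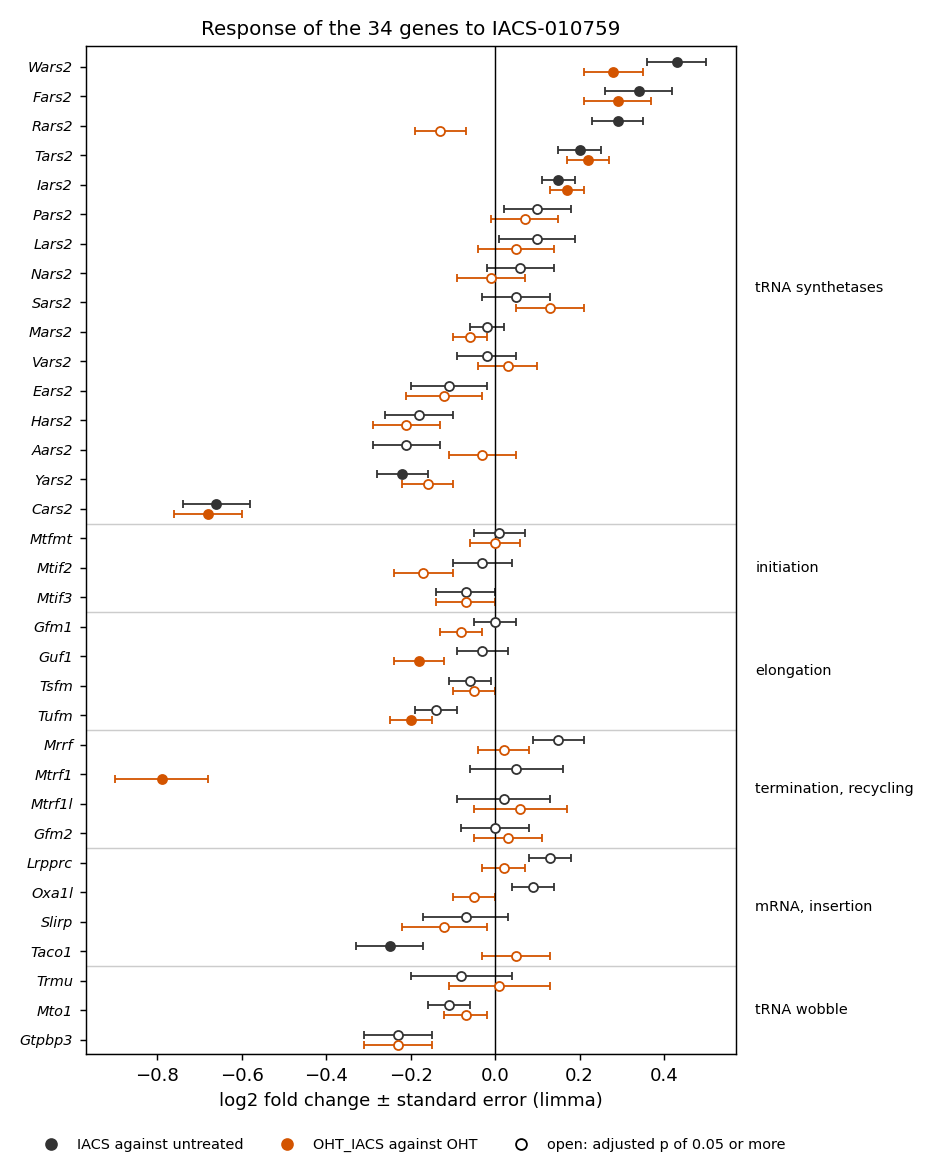
log2 fold change with IACS-010759 (horizontal axis) of each of the 34 genes, grouped by role, in nonprimed cells (dark points, IACS against untreated) and OHT-primed cells (orange points, OHT_IACS against OHT). Bars are standard errors (limma, 3 libraries a group) and filled points are DEGs. Cars2 is filled near -0.66 and -0.68, Wars2, Fars2, Tars2 and Iars2 are filled right of 0 in both, and Mtrf1 is at 0.05 and -0.79.

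For OHT-primed cells (OHT_IACS against OHT), group means came from 6 libraries other than those of nonprimed cells, and the spread again from all 12. There, 8 of the 34 genes were DEGs. Wars2, Fars2, Tars2 and Iars2 rose and Cars2, Mtrf1, Tufm and Guf1 fell, 11.8% each way, beside 23.7% of all genes (11.9% higher and 11.8% lower). The median log2 fold change was -0.042, beside -0.014 over all genes. The groups did not overlap for 12 of the 34 (35.3%), beside 35.1% of all genes. The count was 5 without OHT replicate 3 or OHT_IACS replicate 1. Summed mast cell and basophil markers, mostly Cpa3, were at 4.62 to 5.95 RPKM with OHT and 11.7 to 15.1 RPKM with OHT_IACS. T-lineage markers were at 1.26 to 1.44 and 1.87 to 1.98 RPKM, erythroid markers at 11.6 to 13.7 and 7.92 to 8.47 RPKM and myeloid markers at 29.6 to 30.7 and 27.1 to 28.4 RPKM. The part of these shifts was not tested. Of the DEGs, 5 were shared with nonprimed cells, 62.5% of the 8 in either setting, and went the same way (Cars2, Fars2, Iars2, Tars2 and Wars2). The sign was the same for 26 of the 34 genes, with a Pearson r of 0.61 and a Spearman rho of 0.61 across the genes (n = 34), beside an r of 0.52 across all genes tested. For all genes the shares of common DEGs and of equal signs were not computed here either.

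Cars2 fell from 6.58, 6.41 and 6.54 RPKM with OHT to 4.13, 4.40 and 3.56 RPKM with OHT_IACS, entirely below (-0.68 ± 0.08, adjusted p = 5.6e-05, and an interaction of -0.02 ± 0.11, adjusted p = 0.94). With OHT and IACS-010759 both lowering it, Cars2 had its lowest values in OHT_IACS cells. Tars2 rose from 10, 10.2 and 9.43 RPKM to 11.7, 11.5 and 11.3 RPKM, without overlap (0.22 ± 0.05, adjusted p = 0.01). Iars2 rose from 11.4, 11.9 and 12 RPKM to 13.3, 13.6 and 12.9 RPKM, also without overlap (0.17 ± 0.04, adjusted p = 0.011). Wars2 rose from 8.21, 9.27 and 8.87 RPKM to 11, 10.1 and 11 RPKM (0.28 ± 0.07, adjusted p = 0.013), a call lost without OHT_IACS replicate 1 or 3 (0.05 and 0.054). Fars2 rose from 7.84, 8.43 and 7.95 RPKM to 10.1, 9.96 and 9.61 RPKM. Its groups were apart (0.29 ± 0.08, adjusted p = 0.024), but the call was lost without OHT replicate 1 or 3 or any 1 of the OHT_IACS libraries (0.053 to 0.077).

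Mtrf1 fell from 2.37, 2.46 and 3.04 RPKM to 1.32, 1.54 and 1.54 RPKM, the largest change of any of the 34 genes in the 4 comparisons between groups (-0.79 ± 0.11, adjusted p = 0.00036). Tufm fell from 53.5, 51.0 and 55.0 RPKM to 47.6, 46.3 and 45.0 RPKM. The groups were apart (-0.20 ± 0.05, adjusted p = 0.015), and the call was lost without OHT replicate 3 or OHT_IACS replicate 2 or 3 (0.054 to 0.059). Guf1 fell from 9.13, 9.0 and 9.93 RPKM to 8.12, 8.18 and 8.46 RPKM (-0.18 ± 0.06, adjusted p = 0.045). That call was lost without untreated replicate 3, OHT replicate 1 or 3, IACS replicate 1 or 2, or any 1 of the OHT_IACS libraries (0.056 to 0.15).

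The last comparison asked whether the response to IACS-010759 differed between OHT-primed and nonprimed cells (the interaction, which is equally the difference between both responses to OHT). In limma, 0 of the 34 genes passed, 3 were at an unadjusted p under 0.05, and voom on recovered reads also gave 0 and 3. Over all genes tested 0.144% passed and 12.7% were at an unadjusted p under 0.05. The 3 genes were Mtrf1 (-0.85 ± 0.16 on the log2 scale, adjusted p = 0.06), Rars2 (-0.41 ± 0.08, adjusted p = 0.06) and Taco1 (0.30 ± 0.11, adjusted p = 0.28). With quantile normalization Mtrf1 (adjusted p = 0.038) and Rars2 (adjusted p = 0.045) passed, and 2 genes also passed without OHT replicate 2. The values in each library show the pattern. Mtrf1 was highest with OHT alone and lowest with OHT_IACS. Rars2 was highest with IACS alone, at 11.4 to 12.6 RPKM, and between 8.85 and 10.8 RPKM in the other libraries. Taco1 was lowest with IACS alone, where its libraries overlapped with the untreated ones.

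Cytosolic synthetases gave a second view of the same amino acids. Of the 18 cytosolic synthetase genes listed, 12 rose and 0 fell with IACS in nonprimed cells (66.7%, median log2 fold change 0.28), and 10 rose and 0 fell in primed cells (55.6%, median 0.168). For the 16 mitochondrial synthetases the counts were 5 and 2 in nonprimed cells (median 0.056) and 4 and 1 in primed cells (median 0.011). Of all genes tested, 8.15% were higher and 7.74% lower in nonprimed cells, and 11.9% and 11.8% in primed cells. Neither list was tested against all genes. Cars2 and Cars, both for cysteine, went opposite ways, at -0.66 ± 0.08 and 0.41 ± 0.05 in nonprimed cells and at -0.68 ± 0.08 and 0.39 ± 0.05 in primed ones, each a DEG. So did Yars2 and Yars in nonprimed cells (-0.22 ± 0.06 and 0.19 ± 0.05, adjusted p = 0.018 and 0.014). The call for Yars2 depended on single libraries as given above, and that for Yars was lost without untreated replicate 1 or IACS replicate 1 (adjusted p up to 0.069). Wars2 and Wars, for tryptophan, both rose (0.43 ± 0.07 and 0.35 ± 0.05), as did Tars2 and Tars (0.20 ± 0.05 and 0.32 ± 0.06) and Iars2 and Iars (0.15 ± 0.04 and 0.29 ± 0.05). The differences within pairs were not tested.

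**Figure D4:**
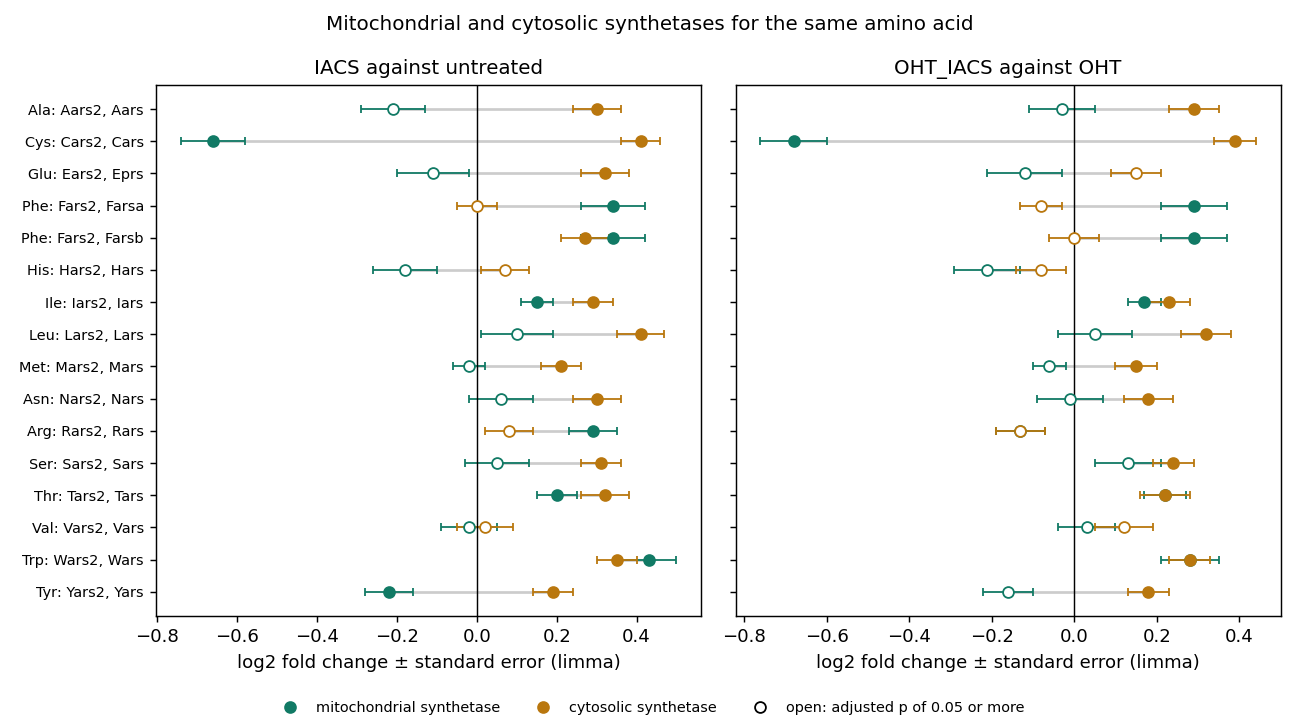
log2 fold change with IACS-010759 (horizontal axes) of mitochondrial (green) and cytosolic (ochre) synthetases for the same amino acid, in nonprimed cells (left) and OHT-primed cells (right). Bars are standard errors (limma, 3 libraries a group) and filled points are DEGs. Ochre points are mostly filled and right of 0, green points lie on both sides, and the cysteine pair is the widest, at -0.66 and 0.41 in nonprimed cells.

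With OHT, Mars2 rose by 0.68 ± 0.04 on the log2 scale while Mars was at 0.07 ± 0.05 (adjusted p = 0.33), and Wars2 rose by 0.54 ± 0.07 while Wars was at 0.00 ± 0.05 (adjusted p = 0.97). Nars2 rose by 0.37 ± 0.08 and Nars was at 0.12 ± 0.06 (adjusted p = 0.11). Of the 18 cytosolic genes 6 rose and 0 fell with OHT (33.3%, median 0.114), beside 18.2% higher and 18.2% lower of all genes. The largest rises were those of Eprs (0.24 ± 0.06, adjusted p = 0.01) and Iars (0.24 ± 0.05, adjusted p = 0.0021). With the library total as a covariate 1 rose and the median was 0.026. Under the inhibitor 2 rose with OHT (11.1%, beside 12.3% of all genes), Vars (0.22 ± 0.07, adjusted p = 0.032) and Iars (0.18 ± 0.05, adjusted p = 0.02). The call for Vars was lost without IACS replicate 1 or 2 or any 1 of the OHT_IACS libraries (up to 0.15), and that for Iars without IACS replicate 1 or 2 or OHT_IACS replicate 1 or 3 (up to 0.084).

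The remaining genes of mitochondrial gene expression were looked at in a list of 59, of which 58 could be tested. It holds other charging enzymes, tRNA and rRNA modification, ribosome assembly, mRNA stability and transcription of mitochondrial DNA. With OHT 24 of the 58 rose and 5 fell (41.4% and 8.62%, median log2 fold change 0.166), and under the inhibitor 15 rose and 5 fell (25.9% and 8.62%, median 0.083). In either direction these were 29 and 20 of the 58 genes (34.5% in the second), beside 36.4% and 26.5% of all genes. Noa1, a GTPase of mitochondrial ribosome assembly, rose most, from 8.77 to 18.4 RPKM on average without the inhibitor (1.04 ± 0.06, adjusted p = 1e-07) and from 8.15 to 18.1 RPKM with it (1.16 ± 0.06, adjusted p = 4e-08). Next were Tfb2m, a factor of mitochondrial transcription initiation, without the inhibitor (0.60 ± 0.06, adjusted p = 5.7e-06) and Trmt61b, a tRNA methyltransferase, with it (0.66 ± 0.14, adjusted p = 0.0034). The largest falls with OHT were those of Qrsl1, a subunit of the amidotransferase that makes glutaminyl-tRNA in mitochondria (-0.37 ± 0.08, adjusted p = 0.0021), and Mrm1, an rRNA methyltransferase (-0.34 ± 0.07, adjusted p = 0.0027, a call lost with the library total as a covariate). Under the inhibitor they were those of Fastkd1 (-0.47 ± 0.11, adjusted p = 0.0086) and again Qrsl1 (-0.42 ± 0.08, adjusted p = 0.0013).

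With IACS-010759, 4 genes of that list rose and 6 fell in nonprimed cells (6.90% and 10.3%, median 0.006), that is 17.2% in either direction, beside 15.9% of all genes. In primed cells 4 rose and 10 fell (6.90% and 17.2%, median -0.074), 24.1% in either direction, beside 23.7% of all genes. Gars, which encodes the glycine enzyme of both compartments, rose in nonprimed cells (0.35 ± 0.08, adjusted p = 0.014), and so did Qrsl1 (0.29 ± 0.08, adjusted p = 0.02). Rbfa, a ribosome assembly factor (-0.37 ± 0.08, adjusted p = 0.0085), and Osgepl1, a tRNA modification enzyme (-0.30 ± 0.08, adjusted p = 0.025), fell. The call for Gars was lost without untreated replicate 2 or IACS replicate 3 (up to 0.061), that for Qrsl1 without untreated or IACS replicate 1 or 2 (up to 0.08), and that for Osgepl1 without untreated or IACS replicate 1 or 3 (up to 0.1). In primed cells Tfb2m (-0.43 ± 0.06, adjusted p = 0.00028) and Ftsj2, an rRNA methyltransferase (-0.38 ± 0.09, adjusted p = 0.012), fell, and Mrm1 (0.27 ± 0.07, adjusted p = 0.02) and Trit1, a tRNA-modifying enzyme (0.24 ± 0.08, adjusted p = 0.048), rose. The call for Mrm1 was lost without OHT replicate 1 or 3 or OHT_IACS replicate 1 or 2 (up to 0.086), and that for Trit1 without any 1 of the OHT or OHT_IACS libraries, untreated replicate 2 or IACS replicate 3 (up to 0.17).

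**Figure D5:**
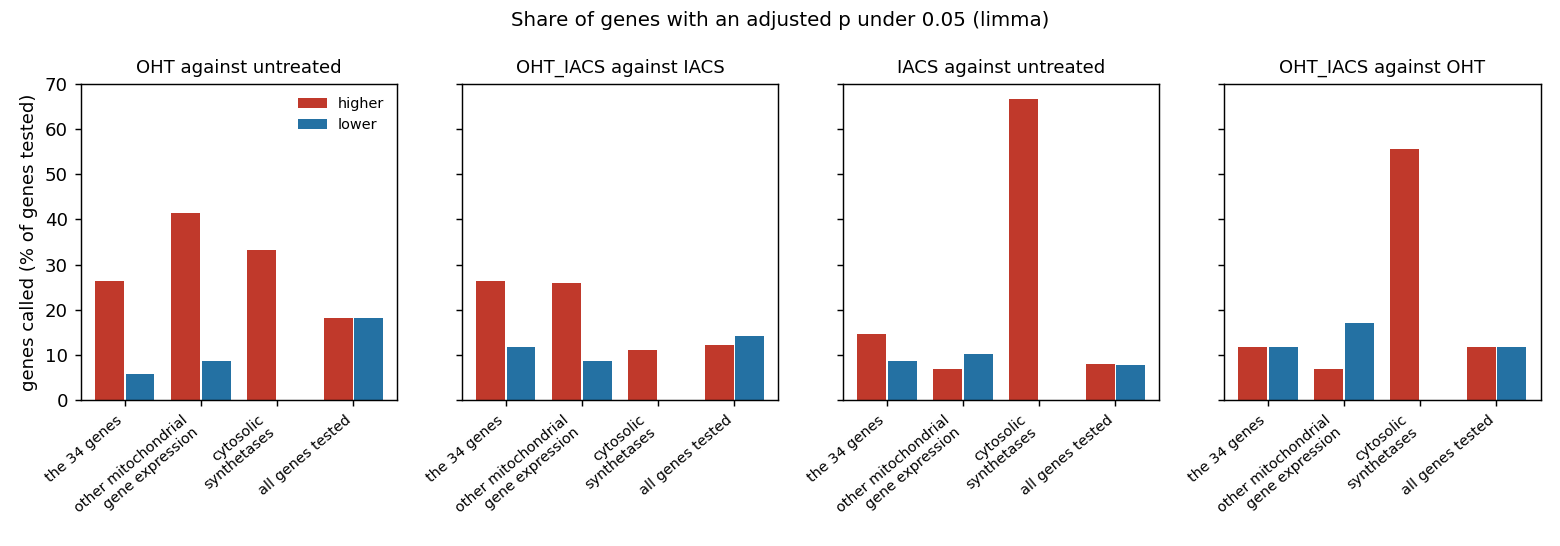
Share of genes tested that were DEGs (vertical axis, percent), higher (red) or lower (blue), for the 34 genes, 58 other genes of mitochondrial gene expression, 18 cytosolic synthetases and all 9745 genes tested, in 4 comparisons between groups. With OHT the red bar of the 34 genes is at 26.5% against 18.2% of all genes. With IACS-010759 the red bars of the cytosolic synthetases stand at 66.7% and 55.6%, against 8.15% and 11.9% of all genes, with no blue bar.

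Of the 34 genes 18 were DEGs in at least 1 comparison, with 40 calls in all that ranged in size from 0.15 to 0.79 on the log2 scale, 6 of them at least 0.5. The share of all genes tested that were DEGs in at least 1 comparison was not computed. The 18 of 34 can therefore not be set against it. The other 16 were DEGs in none in the fit reported: Aars2, Ears2, Hars2, Lars2, Pars2, Sars2, Vars2, Mtif3, Mtfmt, Mtrf1l, Mrrf, Oxa1l, Lrpprc, Slirp, Trmu and Gtpbp3. Their log2 fold changes between groups ran from -0.23 to 0.31 and their adjusted p-values from 0.054 to 1.0 over the 5 comparisons. Some passed in another fit. Hars2 did so in OHT_IACS against OHT with quantile normalization, the replicate block or the library total as a covariate (adjusted p 0.033 to 0.046), and Gtpbp3 with that block, that covariate or voom (0.043 to 0.049). Aars2 passed by voom with OHT and with IACS (0.027 and 0.041). With 1 library left out, the lowest adjusted p was 0.0061 for Trmu in OHT_IACS against IACS (without OHT_IACS replicate 3), 0.014 for Gtpbp3 and 0.019 for Hars2 in OHT_IACS against OHT (without OHT_IACS replicate 2 and 3, respectively), and 0.036 for both Mtif3 and Mrrf with OHT (without OHT replicate 2). Lrpprc, which holds mitochondrial mRNAs in a complex with Slirp, was at 25.2 to 29.2 RPKM over the 12 libraries. Its untreated libraries (25.2 to 25.5 RPKM) were below all treated ones, and with quantile normalization it passed with IACS (limma, adjusted p = 0.042). Slirp was at 13.0 to 19.0 RPKM.

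Some of these genes share start regions or exons with a neighbour on the opposite strand. Diverging starts of protein-coding genes in GENCODE vM21 were counted where they lay up to 1000 bases apart or overlapped by up to 100 bases. Pairs that overlapped further were not counted. Of the 34, 4 (11.8%) had such a partner, beside 13.4% of 9007 tested genes: Ears2 with Ubfd1, Rars2 with Orc3, Sars2 with Mrps12 and Gfm2 with Nsa2. Gfm2 and Nsa2 moved apart with OHT (-0.22 ± 0.08 and 0.25 ± 0.07, adjusted p = 0.047 and 0.011), and Rars2 rose with IACS by 0.29 ± 0.06 while Orc3 was at 0.09 ± 0.05 (adjusted p = 0.27). Exons of 14 of the 34 overlapped with a gene on the opposite strand, over 93.9% of exon bases for Slirp (with Snw1), 29.4% for Mtif3 (with Gtf3a) and 22.9% for Iars2 (with Rab3gap2). The library kit keeps the strand, but the strand setting of the counting is not given in the sources used here, so the values of these 3 genes are less certain.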

How the data were processed

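The authors sequenced stranded, ribosome-depleted libraries and deposited RPKM per gene and library. Per the labels, TopHat2 2.0.8, SAMtools, featureCounts 1.4.5-p1 and DESeq2 with mm9 were used, with roles and settings not given. The deposited table also holds the authors' DESeq2 log2 fold changes and adjusted p-values, which were not used. Groups followed the labels. Libraries were scaled to a common reference, the geometric mean of each gene, by median ratios (factors 0.9735 to 1.026). The 9745 genes reaching RPKM 1 in 3 or more libraries entered limma 3.58.1 (R 4.3.3) on log2(RPKM + 0.1), a scale that understates changes of low genes. One fit took all 12 libraries with a mean-variance trend. Two-sided p-values were adjusted by Benjamini-Hochberg in each comparison, with a threshold of 0.05. Reads, lengths and totals worked out from RPKM steps were whole within 1e-06 for all 15451 genes above 0. The procedure was tested on simulated data. Since replicates of a group differed by more than depth alone gives, the spread between libraries, not counting error, sets the precision. Values in each library are RPKM as deposited. Values were given for genes called in some comparison, and of the other lists the 2 largest rises and falls. The members and lists were chosen with earlier results of these data known. Alternatives were pseudocounts of 0.01 and 1, no filter, RPKM of at least 5, RPKM as deposited, quantile normalization, replicate block, library total as covariate, compared groups only, voom on recovered reads and each library left out. Averaging IACS replicates 1 and 2 was chosen after seeing the data.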

Additional observations from a re-analysis of the deposited data

How the results depend on the processing

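No call changed direction in any alternative or with any library left out, and 21 of the 40 calls held in each of them. Over the 40 calls, 386 of 436 values under the alternatives and 400 of 480 with a library left out were still DEGs. With the library total as a covariate, 7 of the 34 genes were DEGs with OHT. With IACS replicates 1 and 2 averaged, 4 were DEGs with IACS and 8 with OHT under the inhibitor. With quantile normalization 2 passed the interaction. Leaving out single libraries, the number of DEGs ran from 9 to 14 (OHT against untreated), 3 to 9 (IACS against untreated), 5 to 10 (OHT_IACS against OHT), 8 to 13 (OHT_IACS against IACS) and 0 to 2 (interaction). The cause was not tested. Beside libraries left out, at least 1 alternative ended the calls for Gfm2, Guf1, Tsfm and Yars2 (OHT against untreated), Fars2, Iars2, Taco1, Tars2 and Yars2 (IACS against untreated), Guf1 and Tufm (OHT_IACS against OHT) and Gfm1, Mtif2, Mto1, Mtrf1 and Nars2 (OHT_IACS against IACS), at adjusted p-values from 0.05 to 0.47. Alternatives also added calls for Aars2, Gtpbp3, Hars2, Lrpprc, Mto1, Mtif2, Mtrf1, Oxa1l, Gfm2, Rars2, Trmu and Tufm, at adjusted p-values from 0.0032 to 0.05. Comparing only the groups concerned gave no value for the interaction.

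The correlation of deviations from group means between libraries of the same number ran from -0.133 to 0.104. With 3 libraries a group it cannot show whether libraries of the same number were handled together. The fit reported used no pairing. With the replicate number as a block, 11, 7, 9, 11 and 0 genes were DEGs in the same order of comparisons.

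Depth limits the least abundant genes most, such as Mtrf1 and Mtrf1l, and calls within 0.2 on the log2 scale often depended on 1 library.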
